A study of Mus musculus with 6 samples.

Results

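Interferon regulatory factors are transcription factors that share a DNA-binding domain with a repeat of tryptophans and bind elements built around GAAA. The genes described here are 8 family members taken by name from the deposited table, Irf1, Irf2, Irf3, Irf4, Irf5, Irf7, Irf8 and Irf9, out of its 36083 genes. Irf3 and Irf7 are switched on by the kinases Tbk1 and Ikbke after nucleic acid sensing and induce type I interferon, whereas Irf5 acts downstream of Toll-like receptors and Myd88. Irf9 joins STAT proteins such as Stat2 in the complex Isgf3, which carries the interferon receptor signal to the genome. Irf1 activates and Irf2 competes for the same elements. Irf8 and Irf4 work with Ets partners such as PU.1, the product of Spi1, and Irf8 is known for directing myeloid progenitors toward monocytes and dendritic cells and away from granulocytes.

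The RNA came from blast crisis chronic myeloid leukemia (bcCML), modelled in mice. KLS cells, the hematopoietic stem and progenitor fraction, of WT or Sdc1-/- donors on the B6 background received the BCR-ABL and NUP98-HOXA9 oncogenes by retrovirus. Cells positive for both were grown in recipients that the labels call NSG, spleens of both cohorts were collected together, and lineage-negative (Lin-) leukemic cells were sorted. Each group has 3 libraries. Both groups therefore carry both oncogenes and differ by label in Sdc1, the gene of the surface proteoglycan syndecan-1, whose allele in the knockout donors is described in the study as a disrupted signal peptide. The study calls the WT libraries technical replicates in one legend, and nothing says that the libraries of a group are from separate mice, so every SD and p-value below measures the spread between libraries, which may be technical. The deposited value is a length-normalized TPM, computed with kallisto and afterwards scaled again across libraries, and is called the TPM value here. Read depth is unknown.

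Several facts of the libraries bear on every comparison. Sdc1 itself stood between 1.21 and 1.75 in libraries labelled WT and between 3.80 and 4.12 in those labelled Sdc1 KO, so the targeted mRNA was higher under the knockout label, and groups are named by label throughout. The Y-linked gene Eif2s3y was at most 0.0116 in the WT libraries and at least 43.2 in the Sdc1 KO libraries, and Ddx3y, Kdm5d and Uty were split the same way (genes chosen with their values known), so the sex of the leukemic cells and the genotype cannot be told apart. Markers of differentiated myeloid cells differed too, in a fraction sorted as lineage-negative. All 11 granulocyte markers and 11 of 12 monocyte and macrophage markers were lower in libraries labelled Sdc1 KO, with summed TPM values of 14143 to 15019 against 5446 to 5565 and of 562 to 585 against 251 to 260. The most abundant, S100a8 and Ly6c2, fell from 5279 to 1859 and from 490 to 217. All 8 markers of mast cells, basophils and eosinophils and 6 of 8 erythroid markers were lower as well. The immature progenitor list, led by Gata2, was split, with 4 of 9 higher and 3 lower. The marker counts are of genes called by the test given below, by which 29.3% of all genes tested were higher and 31.3% lower. In bulk RNA, fewer cells of a type and less RNA per cell cannot be told apart.

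The promoters of the members give the sequence context of the family, since several interferon regulatory factors are themselves targets of the pathway. RefSeq windows on GRCm38.p6 from 250 bases before to 50 after a start matched all 8 members, with 11 windows in all. Both strands were searched for an interferon response element (GAAANNGAAA), a STAT site (TTCNNNGAA) and an ETS-IRF composite element (GGAANNGAAA), which occur in 3.44%, 8.30% and 2.72% of 32851 windows. Only 3 windows held a match, 1 each of Irf1, Irf2 and Irf8. These are printed because they are the promoters in which a letter pattern of the pathway was found, with the matches in capitals, for Irf1 at chr11:53769764-53770063, Irf2 at chr8:46739495-46739794 and Irf8 at chr8:120736108-120736407, each on the plus strand.
Irf1: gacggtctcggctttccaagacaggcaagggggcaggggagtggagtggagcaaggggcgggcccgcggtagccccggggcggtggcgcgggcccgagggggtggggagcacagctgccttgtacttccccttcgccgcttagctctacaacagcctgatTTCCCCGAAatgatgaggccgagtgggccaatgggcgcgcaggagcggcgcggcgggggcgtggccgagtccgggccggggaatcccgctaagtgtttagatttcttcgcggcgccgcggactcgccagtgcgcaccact
Irf2: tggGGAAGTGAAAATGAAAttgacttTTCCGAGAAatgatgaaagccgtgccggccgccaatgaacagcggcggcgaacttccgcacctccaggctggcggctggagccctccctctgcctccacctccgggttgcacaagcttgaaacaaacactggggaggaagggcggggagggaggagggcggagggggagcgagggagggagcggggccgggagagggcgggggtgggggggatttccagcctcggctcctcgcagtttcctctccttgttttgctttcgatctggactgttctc
Irf8: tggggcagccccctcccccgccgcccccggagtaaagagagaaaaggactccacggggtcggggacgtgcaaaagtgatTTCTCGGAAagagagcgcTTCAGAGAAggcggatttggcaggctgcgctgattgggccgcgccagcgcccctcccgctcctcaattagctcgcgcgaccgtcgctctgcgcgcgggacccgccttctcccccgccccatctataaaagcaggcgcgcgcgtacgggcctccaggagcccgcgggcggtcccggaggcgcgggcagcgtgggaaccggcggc
In Irf1 the capitals are the STAT site TTCCCCGAA, 90 bases before the start. In Irf2 the first run holds the composite element GGAAGTGAAA, 247 bases before the start, overlapping the interferon response element GAAAATGAAA, and the second is the STAT site TTCCGAGAA, 224 bases before it. Irf8 holds the STAT sites TTCTCGGAA and TTCAGAGAA, 171 and 153 bases before the start. The windows of Irf3, Irf4, Irf5, Irf7 and Irf9 hold none of these letter patterns, and a match is a description of letters, not of binding. The Irf9 windows begin at chr14:55603735 and chr14:55604329, after the annotated start of the gene at 55603571. The bases before that start were therefore not searched.

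The levels of the members came first. In the libraries labelled WT, Irf3 was the most abundant, with TPM values of 40.5, 33.5 and 40.4. Irf2 and Irf9 followed, and their ranges overlapped, with Irf2 at 15.5 to 17.2 and Irf9 at 15.0 to 15.7. Below them stood Irf1 at 6.29 to 6.41, Irf5 at 4.79 to 5.54 and Irf7 at 4.17 to 4.46, with no overlap between neighbours in this order. Irf8 was below 1 in each WT library and Irf4 below 0.1. Against the 12155 genes that entered the test, whose mean over the 6 libraries reached 1, the WT mean of Irf3 lay at percentile 73.4, that of Irf2 at 53.8 and that of Irf7 at 23.6. In the libraries labelled Sdc1 KO, Irf9 at 17.5 to 18.2 lay above Irf2 at 15.4 to 16.3, so their order was exchanged, and Irf5 and Irf7 overlapped. Markers of the lymphoid and dendritic cells in which Irf4 and Irf8 are usually high were mixed. Of 8 B cell markers, Cd79b and Vpreb1 had WT means of 2.29 and 1.47 and the others were below 1, with Cd79a, Pax5, Ebf1 and Ms4a1 below 0.1 in both groups. Of 5 plasma cell markers, Xbp1 stood at 168 and the others below 1. Among 9 markers of conventional dendritic cells, H2-Ab1, Cd74, H2-Aa and Zbtb46 had WT means of 32.0, 21.4, 10.8 and 1.73, while Clec9a, Xcr1 and Cd209a were below 0.1. Among 7 of plasmacytoid dendritic cells, Bst2 and Tcf4 stood at 74.7 and 11.9, while Siglech and Klk1 were below 0.1. The summed TPM values of these lists were 4.50 to 4.77, 167 to 171, 63.3 to 69.1 and 83.3 to 89.6 in the WT libraries, and 4.22 to 5.09, 138 to 144, 40.6 to 48.0 and 109 to 114 in the Sdc1 KO libraries. Most of the plasma cell sum is Xbp1, with group means of 168 and 140. Most of the plasmacytoid sum is Bst2, with 74.7 and 96.3. Bst2 is also in the list of Isgf3 targets below, and Cd74 in that of Irf8 targets. The part of such cells in the Irf4 and Irf8 values was not tested.

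**Figure D1:**
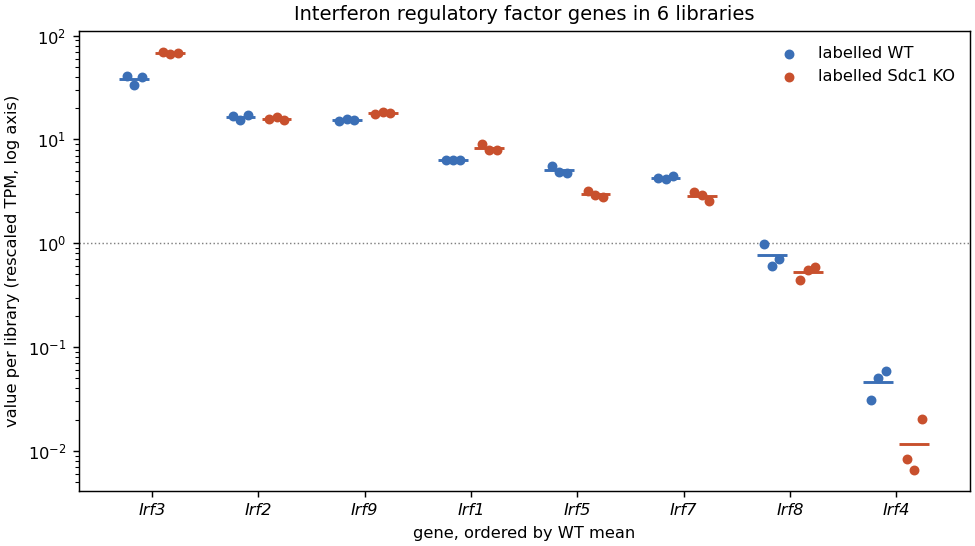
TPM value of each of the 8 members in each of the 6 libraries, on a log axis, with points for single libraries a bar at the group mean and a dotted line at a value of 1. Irf3 is highest in both groups, its Sdc1 KO libraries at 67.0 to 69.4 lie above the WT libraries, and Irf4 and Irf8 lie at the bottom.

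The groups were compared by limma on log2(value + 1), corrected over all 12155 genes by Benjamini-Hochberg. By this test, 5 of the 6 members that passed the minimum differed, 3 higher (Irf1, Irf3 and Irf9) and 2 lower (Irf5 and Irf7) in the libraries labelled Sdc1 KO. Of all genes tested 60.7% differed, 29.3% higher and 31.3% lower, so 5 of 6 is set against a background in which most genes differ. The groups did not overlap for the same 5 of 6 members, against 66.7% of all genes tested. The median log2 fold change of the 6 was 0.075 and that of all genes -0.0097. When all libraries were brought to a sum of 1000000, the median of all genes moved to 0.12 and the calls to 5290 higher and 2367 lower, from 3564 and 3810, while the 3 higher and 2 lower members stayed called. Irf4 and Irf8 were below the minimum and were not tested here.

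**Figure D2:**
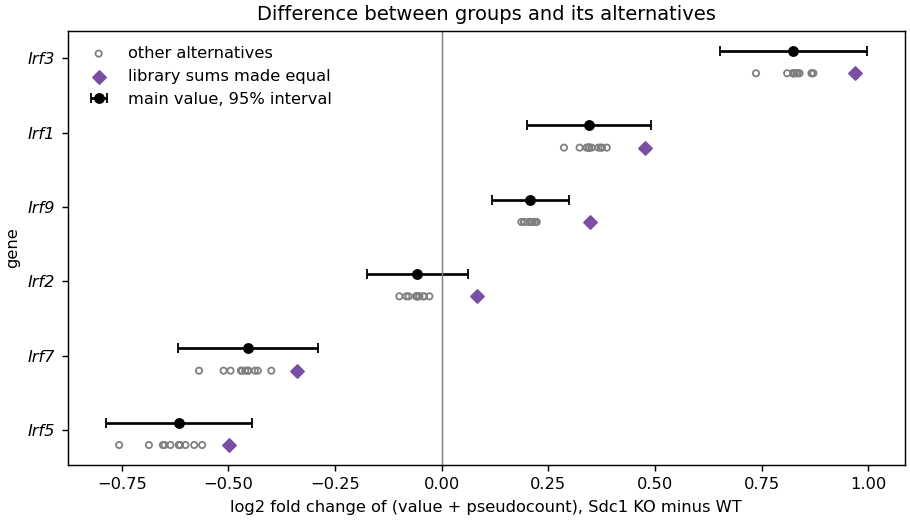
Log2 fold change (Sdc1 KO minus WT, of value + 1) of the 6 tested members, with 95% intervals from limma (black), the same value under the alternative settings (open circles) and with library sums made equal (purple diamonds). The intervals of Irf1, Irf3 and Irf9 lie above 0, those of Irf5 and Irf7 below 0, and that of Irf2 spans 0, with its diamond at 0.08.

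Irf3, the constitutive factor that induces type I interferon once phosphorylated, had TPM values of 40.5, 33.5 and 40.4 in the WT libraries and of 69.4, 67.0 and 67.7 in the Sdc1 KO libraries. The lowest Sdc1 KO library lay well above the highest WT library, and the ratio of the means was 1.78. The log2 fold change of 0.82 (SE 0.073, limma with Benjamini-Hochberg correction, adjusted p = 8.7e-05) was higher than those of 96.5% of the genes tested. The gene (ENSMUSG00000003184) lies at chr7:44997648-45002848 on the plus strand of GRCm38, with 13 transcripts in GENCODE M21.

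Irf7, its interferon-inducible relative that amplifies interferon production, went the other way. Its TPM values were 4.24, 4.17 and 4.46 in the WT libraries and 3.09, 2.94 and 2.58 in the Sdc1 KO libraries, and the groups did not overlap. The log2 fold change was -0.45 (SE 0.070, limma with Benjamini-Hochberg correction, adjusted p = 0.0012), with WT 1.50 times Sdc1 KO. In the ratio of Irf7 to Irf3 within a library, which no scaling between libraries can change, the WT libraries stood at 0.105, 0.124 and 0.111 and the Sdc1 KO libraries at 0.0445, 0.0439 and 0.0381. The log2 ratio was lower by 1.43 in the Sdc1 KO libraries (two-sided exact permutation p = 0.1, which is as low as 3 against 3 libraries can reach). Irf7 (ENSMUSG00000025498) lies at chr7:141262706-141266481 on the minus strand.

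Irf5, which acts after Toll-like receptor signals and drives inflammatory cytokines in myeloid cells, was lower as well. The WT libraries held TPM values of 5.54, 4.90 and 4.79 and the Sdc1 KO libraries 3.17, 2.95 and 2.77, again without overlap. Its log2 fold change was -0.62 (SE 0.072, limma with Benjamini-Hochberg correction, adjusted p = 3.4e-04), with WT 1.71 times Sdc1 KO. Irf5 (ENSMUSG00000029771) lies at chr6:29526625-29541871 on the plus strand. Irf5 and Irf7 were lower together with the granulocyte and monocyte marker lists, whose part in these values was not tested.

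Irf1, the activator, was called higher, and Irf2, its competitor, was not called. Irf1 had TPM values of 6.29, 6.41 and 6.34 in the WT libraries and 9.12, 7.94 and 7.98 in the Sdc1 KO libraries, the first of which stood above the others of its group. The log2 fold change was 0.34 (SE 0.061, limma with Benjamini-Hochberg correction, adjusted p = 0.0024), and the ratio of the means was 1.32. Irf2 had 16.8, 15.5 and 17.2 in the WT libraries and 15.7, 16.3 and 15.4 in the Sdc1 KO libraries, so its groups overlapped. Its log2 fold change of -0.06 did not pass the test (limma with Benjamini-Hochberg correction, adjusted p = 0.35), and the 95% interval ran from -0.18 to 0.06. With every library set to the same sum it was 0.08, so no direction is given for Irf2. The ratio of Irf1 to Irf2 was 0.374, 0.414 and 0.369 in the WT libraries and 0.581, 0.488 and 0.517 in the Sdc1 KO libraries, higher by 0.45 on the log2 scale (two-sided exact permutation p = 0.1). Irf1 (ENSMUSG00000018899) lies at chr11:53770014-53778374 and Irf2 (ENSMUSG00000031627) at chr8:46739732-46847458, both on the plus strand. Each carries a match in the promoters printed above, and a link between matches and differences was not tested.

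Irf9, the DNA-binding subunit of Isgf3, showed the smallest called difference of the family. Its TPM values were 15.0, 15.7 and 15.3 in the WT libraries and 17.5, 18.2 and 17.8 in the Sdc1 KO libraries, a narrow but complete separation. The log2 fold change was 0.21 (SE 0.038, limma with Benjamini-Hochberg correction, adjusted p = 0.0028), and the ratio of the means was 1.16. Irf9 (ENSMUSG00000002325) lies at chr14:55603571-55610030 on the plus strand. Relative to Irf3 it was lower, with ratios of 0.371, 0.467 and 0.378 in the WT libraries and 0.252, 0.272 and 0.263 in the Sdc1 KO libraries (two-sided exact permutation p = 0.1).

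Irf8, the factor of monocyte and dendritic cell fate, was scarce. Its TPM values were 0.993, 0.609 and 0.701 in the WT libraries and 0.446, 0.553 and 0.586 in the Sdc1 KO libraries. The lowest WT library lay just above the highest Sdc1 KO library, and without the minimum mean limma with Benjamini-Hochberg correction gave an adjusted p of 0.16 and a log2 fold change of -0.21. Irf4, which acts in lymphocytes, plasma cells and alternatively activated macrophages, had 0.0306, 0.0498 and 0.0583 in the WT libraries and 0.0083, 0.00656 and 0.0204 in the Sdc1 KO libraries. At these levels a value may rest on very few reads, and the ratio of Irf8 to Irf4, at most 32.5 in the WT libraries and at least 28.7 in the Sdc1 KO libraries, overlapped between groups (two-sided exact permutation p = 0.2). Irf8 (ENSMUSG00000041515) lies at chr8:120736358-120756694 and Irf4 (ENSMUSG00000021356) at chr13:30749226-30766976.

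Summed over the 8 genes, the TPM value was between 80.8 and 89.4 in the WT libraries and between 115 and 118 in the Sdc1 KO libraries, a log2 difference of 0.43 (two-sided exact permutation p = 0.1). Irf3 made up 44.0% ± 2.18 (SD, n = 3) of that sum in the WT libraries and 58.4% ± 0.58 (SD, n = 3) in the Sdc1 KO libraries. Irf2, whose own level was not called, went from 19.1% ± 0.23 to 13.6% ± 0.42 of the sum (SD, n = 3 each), and Irf5 and Irf7 from 5.88% and 4.97% to 2.54% and 2.46%. The share of Irf1, 7.36% and 7.17%, overlapped between the groups although its level was called higher. That of Irf9, also called higher in level, went from 17.8% to 15.3%, as the shares add to a fixed sum.

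**Figure D3:**
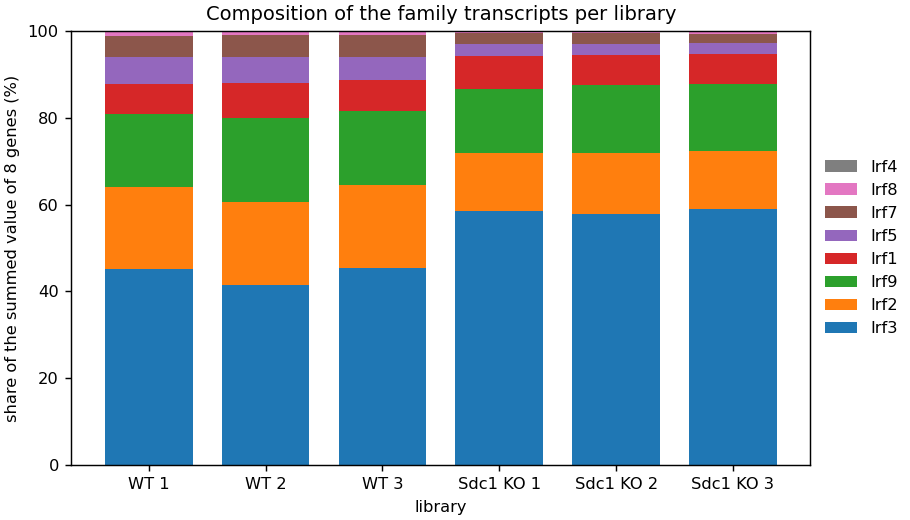
Share of each member in the summed TPM value of the 8 genes, in percent, as stacked bars for each of the 6 libraries. Irf3 takes 41.5% to 45.3% in the WT libraries and 57.8% to 58.9% in the Sdc1 KO libraries. The shares of Irf2, Irf4, Irf5, Irf7, Irf8 and Irf9 are smaller in the Sdc1 KO libraries, and that of Irf1 overlaps between the groups.

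Neighbouring genes share sequence with several members, which matters because the library kit keeps the strand while the strand setting of the quantification is not given in the sources used here. These neighbours were chosen by position after the members' values were seen. Irf3 overlaps Bcl2l12 on the opposite strand by 1065 bases, and 59 of the 3551 distinct 31-base words of Irf3 transcripts, 1.66%, occur in Bcl2l12 on that strand. Bcl2l12 itself rose from a mean of 19.6 to 26.4 (log2 fold change 0.42, limma with Benjamini-Hochberg correction, adjusted p = 0.011). Scaf1, 100 bases away on the opposite strand, rose by less, at 0.32.

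Irf5 shares more, with 356 of 2901 words, 12.3%, found on the opposite strand in Tnpo3, the transportin gene that it overlaps by 1045 bases. Tnpo3 rose from 36.7 to 53.1, a log2 fold change of 0.52 (limma with Benjamini-Hochberg correction, adjusted p = 2.8e-05), while Irf5 fell. The part of the shared words in the Irf5 value was not tested. Irf7 and Phrf1, which overlap by 45 bases and share 15 of 4156 words, also went apart, Phrf1 rising from 21.4 to 40.7. Irf9 shares 234 of 5517 words with other genes on the same strand and 112 on the opposite strand. Of the former, 93 are shared with Rnf31, a subunit of the linear ubiquitin ligase. Rnf31 rose from at most 9.81 in a WT library to at least 13.6 in a Sdc1 KO library (log2 fold change 0.67). The part of the shared words in the Irf9 value was not tested, so that value is uncertain in part. Irf8 lies inside the annotated gene Gm20388 on the same strand but shares none of its 7049 words with any other gene.

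**Figure D4:**
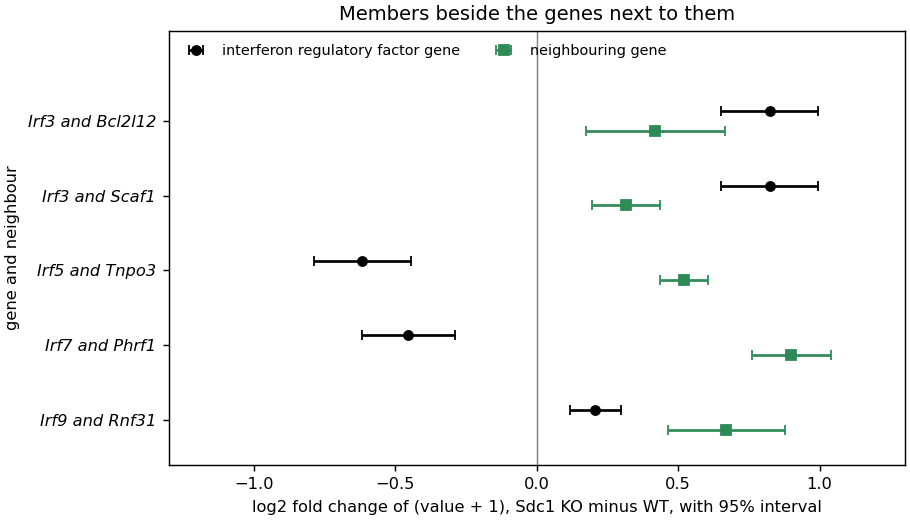
Log2 fold change (Sdc1 KO minus WT, of value + 1) with 95% intervals for 5 pairs of a member (black circles) and the gene beside it (green squares). Irf5 and Irf7 lie below 0 while their neighbours Tnpo3 and Phrf1 lie above 0, and Irf3 and Irf9 lie on the same side of 0 as theirs.

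The rest of the pathway was read from the same fit, in lists of genes by role, each to be set against the 60.7% of all genes tested that differed, 29.3% higher and 31.3% lower. All 21 interferon genes were below the minimum mean, 17 of them listed at 0 in every library, and their summed TPM value was at most 0.149 in any WT library and 0.130 in any Sdc1 KO library. Of the receptors and their kinases, 8 of 9 were tested, with 1 higher and 5 lower (median log2 fold change -0.29, against -0.0097 for all genes tested). The interferon gamma receptor chains fell together, Ifngr1 from TPM values of 124, 135 and 135 to 84.1, 88.7 and 88.4, and Ifngr2 from a mean of 18.5 to 12.4. Of the chains of the type I receptor, named after their values were seen, Ifnar2 fell from 42.8 to 35.6 (log2 fold change -0.26) and Ifnar1 had a log2 fold change of -0.05 and was not called. The call of Ifnar2 was lost with every library set to the same sum (limma with Benjamini-Hochberg correction, adjusted p = 0.072). The kinase Tyk2, which is bound to the type I receptor, rose from 15.2 to 21.1.

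STAT genes differed in both directions. Stat2, the partner of Irf9 in Isgf3, had TPM values of 3.50, 3.26 and 3.72 in the WT libraries and 6.61, 6.83 and 6.59 in the Sdc1 KO libraries. That is a log2 fold change of 0.77 (SE 0.058, limma with Benjamini-Hochberg correction, adjusted p = 4.1e-05). Stat5a rose from a mean of 25.9 to 30.3, while Stat3 fell from 36.6 to 30.1 and Stat5b from 22.7 to 19.6. The call of Stat5b was lost with every library set to the same sum, where its adjusted p was 0.16 (limma, Benjamini-Hochberg).

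Of the 21 sensors, adaptors and kinases that act before Irf3, Irf5 and Irf7, 17 were tested, with 6 higher and 7 lower (7 and 5 with every library set to the same sum) and a median of -0.047. Among the tested genes, the largest falls in log2 fold change were those of Zbp1, Tmem173 (STING) and Tlr4. The nucleic acid sensor Zbp1 fell from 4.70 to 1.97, the adaptor Tmem173 from 9.09 to 5.23 and the Toll-like receptor Tlr4 from 1.75 to 0.713. Below the minimum mean and not tested here, Tlr7 went from 1.37 to 0.201 and Tlr8 from 0.497 to 0.101, while Tlr3 overlapped between the groups. Myd88, the adaptor above Irf5 and the most abundant gene of the list, fell from 82.7, 73.7 and 80.2 to 59.0, 57.7 and 55.4. The proteins that bind or restrain the family were mixed, with 4 of 10 tested genes higher and 3 lower (6 and 1 with every library set to the same sum) and a median of 0.11. Irf2bp1, which encodes a corepressor bound by Irf2, rose from 14.4 to 18.8, and the ubiquitin ligase gene Trim21 rose from 5.07 to 6.49. Trim30a rose from 3.12 to 4.30. Ifi35, the most abundant, fell from 41.9 to 36.6, a call that was lost with every library set to the same sum (limma with Benjamini-Hochberg correction, adjusted p = 0.29).

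Among the DNA-binding partners of Irf4 and Irf8, 5 of 9 genes were tested, with 3 higher and 2 lower and a median of 0.23, where 60.7% of all genes tested differed. Spi1, which encodes PU.1, fell most, from TPM values of 111, 113 and 109 to 65.3, 58.9 and 54.0, a log2 fold change of -0.90 (limma with Benjamini-Hochberg correction, adjusted p = 3.8e-05). Ikzf1 (Ikaros) fell from a mean of 98.2 to 78.6. Etv6, Batf and Tcf3 rose, from 27.3 to 32.1, from 21.8 to 25.7 and from 47.8 to 56.7.

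The target lists of single factors differed in their counts. Of 27 genes listed as Isgf3 targets, 19 were tested, with 9 higher and 4 lower and a median of 0.12, where 29.3% of all genes tested were higher and 31.3% lower. Over the alternatives, 5 to 10 were higher and 2 to 5 lower, and 10 and 3 with every library set to the same sum. Parp14 rose from 2.46 to 4.25 and Bst2 from 74.7 to 96.3, whereas the antiviral genes Rsad2 and Cmpk2, which are neighbours in the genome, fell from 2.73 to 1.08 and from 9.04 to 5.58. Of 22 Irf1 targets, 19 were tested, with 4 higher and 5 lower (7 and 1 with every library set to the same sum) and a median of -0.0045. Nlrc5, the transactivator of MHC class I genes, had TPM values of 1.31, 1.28 and 1.13 in the WT libraries and 3.56, 3.45 and 3.40 in the Sdc1 KO libraries. B2m, which encodes the light chain of MHC class I and is the most abundant of that list, fell from 647 to 540, but lost its call with every library set to the same sum (limma with Benjamini-Hochberg correction, adjusted p = 0.071) or with quantile normalization. Il27ra rose from 5.70 to 11.8 and Gbp2 fell from 5.11 to 3.48.

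Of the myeloid genes listed as Irf8 targets, 18 in all, 12 of 13 tested were lower and 0 higher, with a median of -0.95, where 31.3% of all genes tested were lower. Ctss, a lysosomal protease, had TPM values of 10.5, 11.0 and 11.0 in the WT libraries and 2.67, 2.71 and 2.09 in the Sdc1 KO libraries. Its log2 fold change was -1.77 (SE 0.081, limma with Benjamini-Hochberg correction, adjusted p = 5.2e-06). Cd68 fell from 26.5 to 9.23 and Cybb, a subunit of the phagocyte oxidase, from 36.8 to 13.2, and Cst3, the most abundant, from 337 to 220. The gene without a call, named for that reason, was Fancf, with means of 5.40 and 6.39, which was called higher with every library set to the same sum, with the replicate block and without WT replicate 3. Irf8 itself was below the minimum mean. Without that minimum it was not called (limma with Benjamini-Hochberg correction, adjusted p = 0.16). In the same libraries 11 of 11 granulocyte and 11 of 12 monocyte and macrophage markers, of which Csf1r is in both kinds of list, were lower. The part of those cells in the count was not tested.

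**Figure D5:**
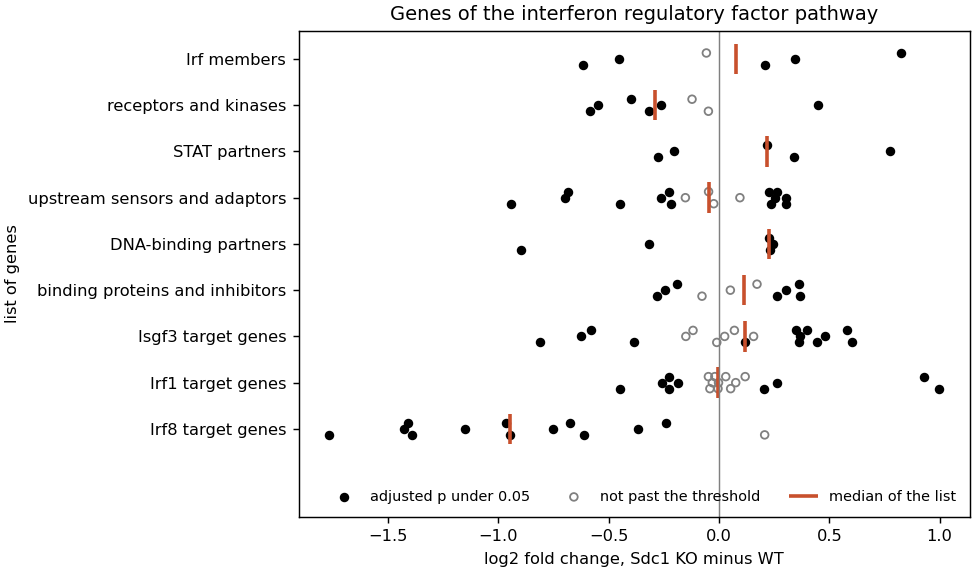
Log2 fold change (Sdc1 KO minus WT, of value + 1) of each tested gene in the family and in 8 lists of its pathway. Filled points passed an adjusted p of 0.05, open points did not, and red bars are the median of a list, which is -0.95 for the Irf8 targets and lies between -0.29 and 0.23 for the others.

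The genes whose log2 values over the 6 libraries followed a member most closely were found for Irf7 and Irf8, as a description over 6 libraries that fall into 2 groups. For Irf7 they were Rab5b, Asrgl1 and Eef1a1, with Pearson correlations of 0.998, 0.998 and 0.997, but 1213 of the 8966 genes compared, whose mean reached 5, were above 0.95. For Irf8 they were Snrk, Srxn1 and Commd4 at 0.977, 0.975 and 0.973, and 15 of the 8966 genes were above 0.95. The Irf8 pattern has a high first WT library, 0.993 against 0.609 and 0.701, which Snrk shares at 6.90 against 4.99 and 5.19. Snrk was picked for this likeness, and the Irf8 values, below 1 in every library, may rest on few reads.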

How the data were processed

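RNA-seq of 6 libraries, 3 labelled WT and 3 labelled Sdc1 KO, was analysed from the table the authors deposited. The labels name kallisto, sleuth 0.30.0 and mm10. The authors deposited a gene-level signal, kallisto TPM scaled again across libraries, with sums of 944973 to 1058263, so the values are no longer TPM in the strict sense. The test planned for TPM was used unaltered. A second deposited table of the authors' own comparison, with p-values and effect sizes, was not used. In limma 3.58.1 (R 4.3.3), log2(value + 1) of the 12155 genes whose mean reached 1 was fitted on group alone, using the trend option of eBayes, and p-values were adjusted by Benjamini-Hochberg with a threshold of 0.05. Fold changes on this scale understate the change of low genes. Ratios were tested by exact permutation. On simulated data that moved 200 of 12155 genes by 1 on the log2 scale, 195 were recovered and 12 unmoved genes were called. The real data had many more called genes and smaller member differences, so this gives no recovery rate for the members. The members and lists were chosen with earlier results of these data known. Genes named from each list were the 3 called with the largest absolute log2 fold change and the most abundant, or all tested where 5 or fewer were. Positions came from GENCODE M21 and promoters from RefSeq. The alternatives changed the pseudocount, minimum mean, scaling, variance trend, replicate block and libraries used. Python 3.11.15, pandas 2.3.3 and matplotlib 3.10.9 were used otherwise. Some genes of the family and its pathway are not reported here.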

Additional observations from a re-analysis of the deposited data

How the results depend on the processing

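In 14 alternatives Irf1, Irf3 and Irf9 stayed called higher, with log2 fold changes of 0.29 to 0.48, 0.74 to 0.97 and 0.19 to 0.35. Irf5 and Irf7 stayed called lower in the 13 that tested them, at -0.76 to -0.50 and -0.57 to -0.34, but with a minimum mean of 5 neither is tested, which leaves 0 members called lower. Irf2 was not called in any alternative and turned from -0.057 to 0.083 with all libraries brought to a sum of 1000000. That scaling also turned Ifnar1, not called in either, from -0.048 to 0.087, and gave 2367 genes called lower, against 3810, and a difference of 0.58 instead of 0.43 for the sum of the 8 members. Irf4 was called only without a minimum mean (adjusted p = 0.049, limma with Benjamini-Hochberg adjustment), at values near 0. With the replicate block, 7624 genes differed, and no member's call changed. To look for pairing, the group mean of each gene was subtracted from its log2 values. The remaining deviations of same-numbered WT and Sdc1 KO libraries correlated at 0.151, -0.0083 and 0.018. These values do not show that the numbers pair the libraries, and the deviations of a library did not always correlate best with those of its own number. Leaving out each library in turn gave 6463 to 6960 called genes and changed no member's call. In the Irf1 target list the higher genes were 4, and 2 without WT replicate 1, WT replicate 3, Sdc1 KO replicate 1 or Sdc1 KO replicate 3. Depth is unknown, so no counting interval can be given.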
